A study of Mus musculus with 14 samples.

Results

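The 10 genes described here, Siglecf, Car4, Plet1, Krt19, Krt79, Cdh1, Kcnip4, Kcnj15, Slc7a2 and Tppp, are surface and structural markers of the resident alveolar macrophage, taken from a table of 43432 mouse genes. They were chosen by their names, and the names were selected on measured values of this same table, in which most of them were lower in cells with much MHC class II (MHCII) on their surface than in cells with little. Which values were used is not recorded here, and the difference between MHCII classes is taken to be among them. That difference is therefore given below as a description with no test. The tested comparisons share libraries with it, so the choice may bear on their p-values and counts too. All 10 genes passed the filter on low values (10 or more normalized counts in 2 or more libraries), as did 17390 genes in all. The lungs were those of 129S1 males, 10 to 12 weeks of age, given bleomycin (labelled 3 U/k), an agent that injures the lung, or water through the trachea. Cells positive for the surface proteins SiglecF and CD11c were sorted by their MHCII level, and their RNA was sequenced in bulk. The 5 groups were MHCII-low cells after water (control, 2 libraries, replicates 1 and 3), MHCII-low cells 2 weeks and 4 weeks after bleomycin, and MHCII-high cells 2 weeks and 4 weeks after bleomycin (3 libraries each). MHCII-high cells after water were not analysed here. The labels do not say that replicates came from separate mice or pools, so p-values measure only the spread between these libraries.

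Resident alveolar macrophages line the airspace, clear surfactant and inhaled particles, and maintain themselves locally in the undisturbed lung. They carry an unusual set of surface and cytoskeletal genes for a macrophage, among them the lectin Siglec-F and genes better known from epithelium, such as E-cadherin and keratins. After bleomycin injury, macrophages that arise from blood monocytes enter the airspace and acquire such markers only gradually. Because SiglecF protein was itself a criterion of the sort, every group consists of cells positive for it.

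Library depth, as gene counts recovered from the table, ranged from 15106415 to 88059616 reads, and the fewest reads for any of the 10 genes in any library was 97, for Kcnip4. All 8 markers used to check the cell label were above 0 in every library, from 335.8 normalized counts for Fabp4, a fatty acid binding protein, to 303547 for the chitinase-like gene Chil3. This is a weak check, since genes of other cells, such as Scgb1a1, Sftpc and Vwf, were above 0 in every library too. Mitochondrial ribosomal RNA took 3.12% to 29.0% of the reads. The third 4-week MHCII-high library stood apart on the second principal component of all tested genes, at 146.4 against a range of -73.5 to 44.7 for the others. Several results that it moved are therefore also given without it.

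The stretch upstream of the annotated start was available from RefSeq (build GRCm38.p6) for 7 of the 10 genes, not for Krt19, Cdh1 or Slc7a2. Each is 250 bases long, ends at the base before the RefSeq start site, and is written 5′ to 3′ on the strand of the gene. That start equals the deposited gene start for Siglecf, Plet1, Krt79 and Kcnj15. It lies 32 bases away for Car4, 12 for Tppp and 239248 for Kcnip4, for which the nearer of 2 listed starts was taken. Those of 5 genes are shown: Siglecf and Krt79, whose levels moved together across libraries, Plet1, which held the most motif matches, and Car4 and Kcnj15, which passed a test between time points. Capitals mark every match, on either strand, to 6 motifs: the ETS core GGAAGT bound by PU.1, the E-box CACGTG bound by Bhlhe40 and Bhlhe41, the nuclear receptor half-site AGGTCA, the C/EBP motif TTGCNNAA, the TATA box TATAAA and the AP-1 motif TGANTCA.
Siglecf, chr7:43351091-43351340, plus strand: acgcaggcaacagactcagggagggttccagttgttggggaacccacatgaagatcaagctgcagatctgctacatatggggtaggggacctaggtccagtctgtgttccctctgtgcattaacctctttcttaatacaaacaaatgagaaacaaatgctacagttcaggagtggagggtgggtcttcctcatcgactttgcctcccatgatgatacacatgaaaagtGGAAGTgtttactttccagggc
Plet1, chr9:50494275-50494524, plus strand: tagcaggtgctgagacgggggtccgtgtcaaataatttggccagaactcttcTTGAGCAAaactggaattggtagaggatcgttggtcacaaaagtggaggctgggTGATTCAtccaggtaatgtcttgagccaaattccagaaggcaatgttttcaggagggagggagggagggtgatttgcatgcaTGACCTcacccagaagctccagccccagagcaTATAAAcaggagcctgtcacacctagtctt
Car4, chr11:84957504-84957753, plus strand: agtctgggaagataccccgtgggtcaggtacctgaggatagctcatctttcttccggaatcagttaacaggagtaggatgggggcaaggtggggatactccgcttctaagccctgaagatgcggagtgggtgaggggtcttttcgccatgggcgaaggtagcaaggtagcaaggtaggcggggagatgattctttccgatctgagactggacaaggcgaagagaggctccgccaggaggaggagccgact
Krt79, chr15:101940325-101940574, minus strand: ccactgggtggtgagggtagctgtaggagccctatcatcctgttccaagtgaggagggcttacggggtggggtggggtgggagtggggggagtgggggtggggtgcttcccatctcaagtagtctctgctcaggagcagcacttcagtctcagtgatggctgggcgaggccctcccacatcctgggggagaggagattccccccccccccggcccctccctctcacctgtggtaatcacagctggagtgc
Kcnj15, chr16:95257308-95257557, plus strand: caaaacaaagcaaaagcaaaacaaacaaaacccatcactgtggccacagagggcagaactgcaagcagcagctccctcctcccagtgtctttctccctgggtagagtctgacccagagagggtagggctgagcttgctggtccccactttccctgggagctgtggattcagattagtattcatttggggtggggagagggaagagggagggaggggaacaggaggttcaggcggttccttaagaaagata

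The Siglecf stretch held 1 match, the ETS core at positions -22 to -17 counted from the start site. The Plet1 stretch held 4, among them a TATA box at -30 to -25. No match to the 6 motifs was found in the Car4, Krt79 and Kcnj15 windows. Among 32851 mouse promoters of the same length, 19.7% held the ETS core, 12.4% the TATA box and 6.75% the AP-1 motif, so single matches of this kind are common. The ratio of observed to expected CpG dinucleotides was low for Kcnj15 (0.058), Krt79 (0.120) and Siglecf (0.140) and higher for Car4 (0.610). Its median over the 7 genes, Kcnip4 with its distant start included, was 0.199, against 0.373 over all promoters. A match describes letters and no binding was measured.

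Siglecf encodes a sialic acid binding lectin of the Siglec family, found in the mouse mainly on alveolar macrophages and eosinophils. The gene (ENSMUSG00000039013) spans chromosome 7, 43351341 to 43359531, on the plus strand of mm10, with up to 10 exons. Its normalized counts in MHCII-low cells were 6461 and 7034 in control, 7231, 6471 and 6651 at 2 weeks and 9551, 7205 and 8156 at 4 weeks. In MHCII-high cells they were 3769, 3056 and 3733 at 2 weeks and 4358, 4139 and 3728 at 4 weeks. All MHCII-high libraries lay below all MHCII-low libraries with a wide gap between them. The group means of the MHCII-high cells were 0.519 (2 weeks) and 0.491 (4 weeks) of those of the MHCII-low cells at the same time. Within the MHCII-low cells, 2 weeks after bleomycin differed from control by a log2 fold change of 0.01 ± 0.17 (SE), the smallest of the 10 genes.

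Plet1 encodes a surface glycoprotein first described in placenta. It spans chromosome 9, 50494525 to 50505482, and had the highest mean of the 10 genes per kilobase of exon, 16102 normalized counts per kb. Its counts in MHCII-low cells were 34041 and 30676.5 in control, 62766.5, 41059 and 33480.5 at 2 weeks and 31873, 32786 and 38095 at 4 weeks. In MHCII-high cells they were 21182, 18595 and 26149 at 2 weeks and 23761, 26452.5 and 17979 at 4 weeks. Every MHCII-high library was below every MHCII-low library, control included. The first 2-week MHCII-low library was far above its replicates, so that group had an SD of 15200 about a mean of 45769 (n = 3), and it overlapped both other MHCII-low groups. An antisense transcript, Plet1os, overlaps the gene and had 69.5 to 343.2 counts, and whether the authors counted by strand is not given in the sources used here.

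Car4 encodes a membrane-anchored carbonic anhydrase, which interconverts carbon dioxide and bicarbonate, and is also a known marker of lung capillary endothelium. It spans chromosome 11, 84957786 to 84966044, on the plus strand, and averaged 12401 normalized counts per kb. Its counts were 16351 and 23258 in control MHCII-low cells, 39135, 37755 and 45910.0 at 2 weeks and 20794, 17650.3 and 18932 at 4 weeks. MHCII-high cells had 22269, 23497 and 29675 at 2 weeks and 15668, 19413 and 11008 at 4 weeks. The 2-week MHCII-low libraries were above all other libraries, and the other 4 groups each overlapped the next in order: 2-week MHCII-high, control, 4-week MHCII-low and 4-week MHCII-high. The MHCII-high mean was 0.614 of the MHCII-low mean at 2 weeks, with no overlap, and 0.803 at 4 weeks, where the groups overlapped. Without the third 4-week MHCII-high library the log2 difference at 4 weeks was -0.13, in place of -0.35.

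Cdh1 encodes E-cadherin, a calcium-dependent adhesion protein of epithelial junctions that alveolar macrophages also carry. It spans chromosome 8, 106603351 to 106670246, on the plus strand, with up to 17 exons. Its counts in MHCII-low cells were 2849 and 2618 in control, 4788, 6123 and 5689.5 at 2 weeks and 4028, 4126 and 3318 at 4 weeks. In MHCII-high cells they were 6735, 5432 and 5382 at 2 weeks and 3195, 4595.5 and 4976 at 4 weeks. Both control libraries lay below every library from bleomycin-treated mice, whatever the MHCII level. Cdh1 was the only gene of the 10 whose mean was higher in MHCII-high than in MHCII-low cells at both times, by ratios of 1.06 and 1.11, and the groups overlapped at both. The sign of that small 2-week difference turned with the share of mitochondrial ribosomal RNA as a covariate (log2 -0.16 in place of 0.08).

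Krt19 and Krt79 encode keratins, the subunits of intermediate filaments, of the acidic and the basic type. Krt19 spans chromosome 11, 100140810 to 100148665, and Krt79 chromosome 15, 101929332 to 101940324, both on the minus strand. Krt19 counts in MHCII-low cells were 4844 and 5093 in control, 6616, 4500.0 and 6344 at 2 weeks and 8396, 5739 and 5649.6 at 4 weeks. The MHCII-high libraries had 1878.5, 1985 and 1838 at 2 weeks and 3338, 2818 and 2079 at 4 weeks. The MHCII-high cells had 0.327 of the Krt19 mean of their MHCII-low counterparts at 2 weeks and 0.416 at 4 weeks, with a wide gap between the libraries. The pattern of Krt79 was similar: its means were 3686 ± 505 (SD, n = 2) in control, 4171 ± 914 and 4180 ± 468 in MHCII-low cells at 2 and 4 weeks, and 1558 ± 110 and 1816 ± 415 in MHCII-high cells (n = 3 each). The 3 MHCII-low groups overlapped for Krt79, and the highest MHCII-high library, at 2234, was below the lowest MHCII-low library, at 3139. The usual keratin partners of simple epithelium were nearly silent, with Krt8 at 0 to 66.9 counts and Krt18 at 1.2 to 60.9.

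Kcnj15 encodes an inwardly rectifying potassium channel and Kcnip4 a calcium-binding subunit of voltage-gated potassium channels. Kcnj15 spans chromosome 16, 95257558 to 95300260, and Kcnip4 chromosome 5, 48389502 to 49524907, on the minus strand, a span that holds many small genes. Kcnj15 counts in MHCII-low cells were 16201 and 22873 in control, 14026, 11905 and 6382 at 2 weeks and 14958, 17649 and 18088.5 at 4 weeks. MHCII-high cells had 3301, 1846 and 3169 at 2 weeks and 9863, 8246 and 5426 at 4 weeks. In both MHCII classes the 2-week libraries lay below the 4-week libraries without overlap, and at each time the MHCII-high libraries lay below the MHCII-low ones. Kcnj15 had the lowest ratio of MHCII-high to MHCII-low means at 2 weeks among the 10 genes, 0.257, and 0.464 at 4 weeks.

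Kcnip4 was the least abundant of the 10 per kilobase, at 70.8 normalized counts per kb, a level above that of 50% of the genes tested. Its counts in MHCII-low cells were 292 and 379.7 in control, 217, 221 and 204 at 2 weeks and 301, 358 and 327 at 4 weeks. In MHCII-high cells they were 121, 99.9 and 117 at 2 weeks and 422.5, 394 and 127 at 4 weeks. The third 4-week MHCII-high library, the one that stands apart, was near the 2-week libraries while its 2 replicates were above every MHCII-low library. With it the log2 difference of MHCII-high from MHCII-low cells at 4 weeks was -0.25, and without it 0.31, so its direction rests on that library.

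Slc7a2 encodes a transporter of arginine and other cationic amino acids, and Tppp a protein that promotes the polymerisation of tubulin. Slc7a2 spans chromosome 8, 40862396 to 40922308, and had 81087 to 126686 normalized counts across all libraries. Its 5 groups overlapped, with means from 94186 ± 10649 (SD, n = 3, 4-week MHCII-high) to 114348 ± 15228 (n = 3, 2-week MHCII-low), and no other of the 10 genes had group means so close together. A non-coding gene on the opposite strand, Gm26584, had 326.7 to 2311 counts. Tppp, on chromosome 13, 74009407 to 74035753, had 1090.3 and 2151 counts in control, 805.5, 1271 and 957 at 2 weeks and 1229, 1829 and 1630.2 at 4 weeks in MHCII-low cells. In MHCII-high cells its counts were 226, 189 and 443 at 2 weeks and 237, 595 and 1064 at 4 weeks. Every MHCII-high library was below the MHCII-low libraries of its time, and the 4-week MHCII-high library with the most Tppp was again the one that stands apart. Without that library the log2 difference of MHCII-high from MHCII-low cells at 4 weeks was -2.03, in place of -1.53.

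**Figure D1:**
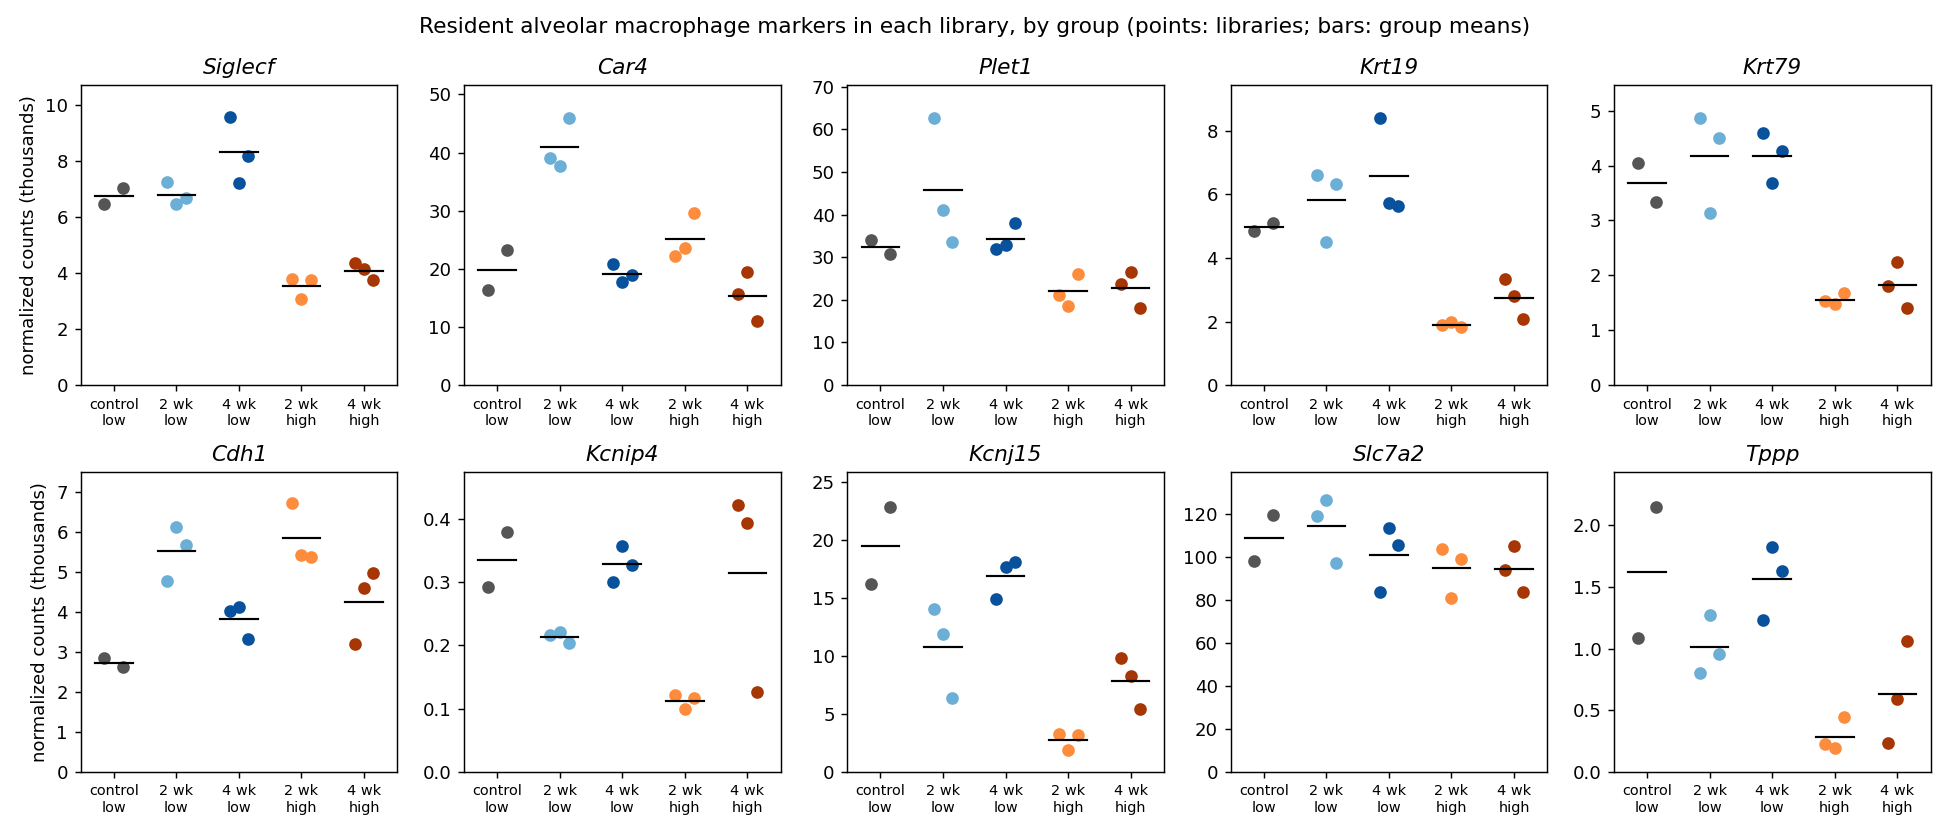
Normalized counts (in units of 1000, axes from 0) of the 10 genes in each of the 14 libraries, with bars at the group means. Siglecf, Krt19 and Krt79 show 2 separate levels by MHCII class, Car4 is highest in 2-week MHCII-low cells, and Cdh1 is lowest in control.

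Across the 10 genes, all MHCII-high libraries were below all MHCII-low libraries for 8 at 2 weeks and for 6 at 4 weeks. The 6 at 4 weeks were Siglecf, Plet1, Krt19, Krt79, Kcnj15 and Tppp, and at 2 weeks Car4 and Kcnip4 joined them. Over all genes tested the same held for 8.26% and 8.13%. These counts may follow from how the genes were chosen, so nothing is read from them. The log2 differences of MHCII-high from MHCII-low cells ranged from -1.93 ± 0.27 (SE, Kcnj15) to 0.08 ± 0.18 (Cdh1) at 2 weeks and from -1.53 ± 0.41 (Tppp) to 0.14 ± 0.18 (Cdh1) at 4 weeks. In bulk RNA, fewer cells of a type and less RNA per cell cannot be told apart.

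Markers of other cells moved with the MHCII class. The summed counts of 12 markers of monocyte-derived or interstitial macrophages were 43721 to 58046 in MHCII-high against 12166 to 15476 in MHCII-low cells at 2 weeks, and 24318 to 24941 against 6719 to 7989.8 at 4 weeks. For 8 dendritic cell markers the sums were 992.2 to 2336.5 against 152.0 to 251.5 at 2 weeks and 1200.1 to 2217 against 79.9 to 199.0 at 4 weeks. The 10 lymphocyte markers summed to 1259.7 to 1998 against 184.9 to 452.0 at 2 weeks. At 4 weeks their sums overlapped (780.2 to 3861 against 83.1 to 2422), while the median log2 difference of the 9 tested was 2.75, after 3.31 at 2 weeks. Of that 4-week sum the immunoglobulin gene Ighm made up 745.5 ± 1196 counts (SD, n = 3) in MHCII-low cells. At 4 weeks the 9 endothelial markers also had higher sums (3603 to 4563 against 1780.5 to 2842). The 18 epithelial markers had lower sums at 4 weeks (14602 to 24390.1 against 32110.2 to 46524), but a median log2 difference of 0.01, and 1.37 at 2 weeks. Within the sum, the club cell genes Scgb1a1 (means of 4882 against 21673 at 4 weeks) and Cyp2f2 (1787 against 7853) had lower means. Genes of alveolar type 2 cells did not move alike. Sftpc (3422 against 348.2), Lamp3 (253.7 against 19.9), Sftpa1 (870.1 against 411.5) and Sftpd (65.3 against 56.8) had higher means. Sftpb (924.7 against 1333) and Abca3 (4719 against 4828) had lower ones. Eosinophils, the other cells with SiglecF, left little signal: their 8 markers summed to 76.6 to 622.5 counts, and Prg2, which encodes a granule protein that defines them, was at 0 in all 14 libraries. The part of these other cells in the differences of the 10 genes was not tested.

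**Figure D2:**
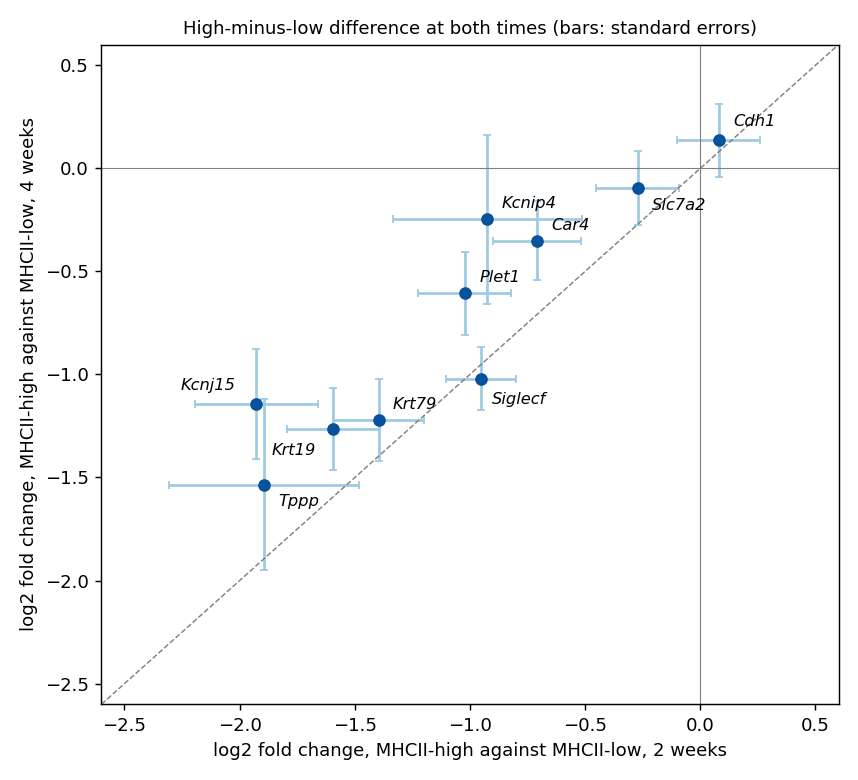
Log2 fold change of MHCII-high against MHCII-low cells at 2 weeks (horizontal) and 4 weeks (vertical) for each of the 10 genes, with standard errors as bars and the line of equal values dashed. Most genes lie below 0 on both axes and above the line, with Cdh1 and Slc7a2 nearest to 0.

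Bleomycin was compared with water within the MHCII-low cells. At 2 weeks after bleomycin, Car4 and Cdh1 were higher than in control and the other 8 genes did not pass the test (an adjusted p under 0.05 by limma, a linear model across all genes). Car4 rose 2.07-fold, from 19805 ± 4884 (SD, n = 2) to 40933 ± 4365 (n = 3), a log2 fold change of 1.06 ± 0.21 (SE, limma adjusted p = 0.0075). Cdh1 rose 2.02-fold, from 2734 ± 163 (n = 2) to 5533 ± 681 (n = 3), a log2 fold change of 1.01 ± 0.20 (limma adjusted p = 0.0069). These were 2 of the 10 genes, against 1.91% of all genes tested, a count on which the choice of the genes may bear. In neither did a bleomycin library overlap a control library. The share of all genes without overlap was not counted for the tested comparisons, so nothing is read from a lack of overlap. Among the other 8, Kcnj15 had the largest difference, -0.91 ± 0.30 (limma adjusted p = 0.15), with no overlap between the libraries, and Kcnip4 (-0.64 ± 0.46) and Tppp (-0.62 ± 0.46) also had lower means. The remaining differences ran from 0.01 (Siglecf) to 0.45 (Plet1).

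Both calls lean on a control group of 2 libraries. Without control replicate 1 the difference was 0.81 for Car4 (adjusted p = 0.26) and 1.07 for Cdh1 (adjusted p = 0.063), and without control replicate 3 that of Cdh1 was 0.95 (adjusted p = 0.13), all by limma. Control libraries also had more mitochondrial ribosomal RNA (21.7% and 24.1%) than the 2-week MHCII-low libraries (3.42% to 18.3%). With that share as a covariate, Car4 (1.08, limma adjusted p = 0.025) and Cdh1 (1.22, limma adjusted p = 0.0022) kept their calls.

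Markers of other cells were set beside the 2 genes. The 9 endothelial markers, of interest since endothelium also expresses Car4, summed to 3048 to 4871 counts at 2 weeks against 1907 to 2576 in control. Most of that was Vwf, von Willebrand factor, which rose with a log2 fold change of 1.10 ± 0.25 (limma adjusted p = 0.018, lost on leaving out any of 3 of the 5 libraries, one at a time). The median log2 difference of the 9 was -0.30, against -0.09 for all genes. No endothelial marker was at 0 in all libraries of either group. Cldn5, a junction protein that defines endothelium, had means of 13.9 counts at 2 weeks and 3.7 in control (log2 1.86 ± 1.66, limma adjusted p = 0.72). The other endothelial markers did not move alike. Pecam1 (129.9 against 196.5), Tie1 (8.7 against 35.2) and Ednrb (17.0 against 34.9) had lower means, and Cdh5 had 220.3 against 221.4. Tek (75.7 against 49.6), Kdr (88.5 against 84.0) and Emcn (20.9 against 18.2) had higher ones. The part of endothelial RNA in the Car4 difference was not tested. The 18 epithelial markers, which bear on Cdh1, summed to 10898 to 17834.5 counts at 2 weeks against 17676.5 and 30049 in control. The members of that list did not move alike: Scgb1a1 had means of 4640 against 13791 and Cyp2f2 1231 against 3988, while Lamp3 had 49.9 against 6.7 (log2 2.73 ± 0.97, limma adjusted p = 0.2). Of other type 2 cell genes, Sftpa1 (438.8 against 302.4) and Abca3 (4425 against 4062) had higher means. Sftpb (456.6 against 617.6) and Sftpd (14.8 against 32.6) had lower ones. The surfactant gene Sftpc rose from 39.6 and 169.4 counts to between 504.8 and 1763 (log2 3.47 ± 0.59, limma adjusted p = 0.0017), a call lost without control replicate 3 (2.43, adjusted p = 0.12). Sums for monocyte-derived macrophages (12166 to 15476 against 6393 to 6445), neutrophils (8384 to 10509 against 4179 to 7778) and fibroblasts (507.9 to 805.1 against 171.0 to 216.8) were higher as well. Those of 8 dendritic cell markers (152.0 to 251.5 against 268.6 to 329.5) and 7 proliferation genes (8223 to 10674 against 15314 to 16894) were lower. The median log2 difference of the dendritic cell markers went the other way, at 0.44, while that of the proliferation genes was -0.54. Most of the neutrophil sum was Csf3r (means of 4888 against 4969) and Cxcr2 (4179 against 846.8). S100a8 also had a higher mean (226.1 against 109.5), while Ly6g (0.73 against 0.6) and Camp (0 against 0.4) were near 0. The part of these other markers in the 2 results was not tested.

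**Figure D3:**
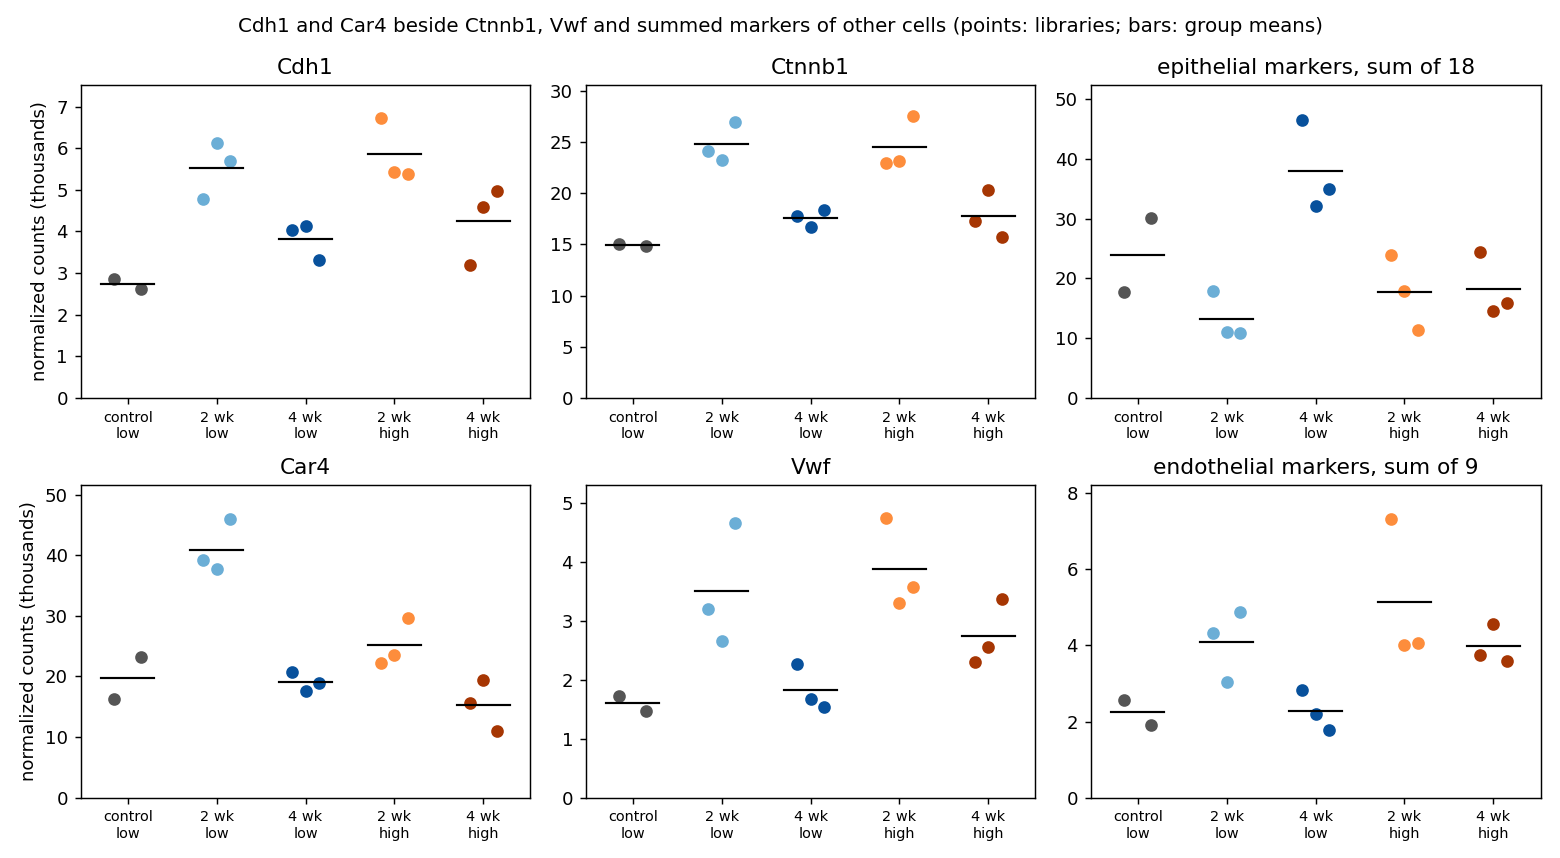
Normalized counts (in units of 1000, axes from 0) of Cdh1 beside its partner Ctnnb1 and the sum of 18 epithelial markers, and of Car4 beside Vwf and the sum of 9 endothelial markers, in each library with bars at group means. Cdh1 and Ctnnb1 are both lowest in control, and the epithelial sum, which includes Scgb1a1 and Cyp2f2, is highest in 4-week MHCII-low cells. Among MHCII-low cells, Vwf, the endothelial sum and Car4 are all highest at 2 weeks. Vwf has its highest mean in 2-week MHCII-high cells (3866 against 3506 in MHCII-low cells), where Car4 is lower (25147 against 40933).

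The MHCII-low cells at 4 weeks were compared with control next, in a comparison that shares its control libraries with the one at 2 weeks. No time after water is recorded here for those libraries. Car4 was at 19125 ± 1581 (n = 3), a log2 difference of -0.03 ± 0.21 from control. Kcnip4, Tppp and Plet1 differed by -0.02, 0.01 and 0.08. Cdh1 was 1.4 times its control mean with no overlap, a log2 difference of 0.48 ± 0.20 that did not pass (limma adjusted p = 0.76). Krt19 (0.38 ± 0.22) and Siglecf (0.29 ± 0.17, both limma adjusted p = 0.87) also had every 4-week library above both control libraries without passing. How many of all genes separated in this way was not counted. By limma 0 of the 10 genes passed, against 0.046% of all genes, and 1 had an unadjusted p under 0.05. edgeR and DESeq2 called 0 of the 10 as well.

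Between 2 and 4 weeks in MHCII-low cells, Car4 fell to 0.467 of its 2-week mean (log2 -1.10 ± 0.19, limma adjusted p = 0.0033). The call was kept in all 15 alternatives run, which gave log2 values of -1.17 to -1.01 and a largest adjusted p of 0.03. It was the 1 gene of the 10 that passed, against 0.857% of all genes. Cdh1 (-0.53 ± 0.18, limma adjusted p = 0.29), Kcnip4 (0.61 ± 0.41, limma adjusted p = 0.88) and Kcnj15 (0.72 ± 0.27, limma adjusted p = 0.39) had non-overlapping groups but did not pass. The share of all genes with non-overlapping groups was not counted here either. The endothelial sum was 1780.5 to 2842 at 4 weeks against 3048 to 4871 at 2 weeks, with Vwf lower (-0.93 ± 0.22, limma adjusted p = 0.049, up to 0.28 on leaving out 1 library), and the monocyte-derived, neutrophil and fibroblast sums were lower too, at 6719 to 7989.8, 5243 to 6719 and 137.6 to 258.9. In the neutrophil sum, Cxcr2 had a mean of 833.5 against 4179 and Csf3r 4822 against 4888. The epithelial sum was higher, at 32110.2 to 46524, with Scgb1a1 at a mean of 21673 against 4640 and Sftpc at 348.2 against 1047. Their part in the Car4 difference was not tested.

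In MHCII-high cells, Kcnj15 rose 2.83-fold between 2 and 4 weeks, from 2772 ± 805 to 7845 ± 2246 (n = 3 each), a log2 fold change of 1.50 ± 0.27 (limma adjusted p = 0.0077). It still lay below all MHCII-low libraries of the 4-week and control groups. Without the second 2-week MHCII-high library, which had the fewest counts, the difference was 1.24 (limma adjusted p = 0.062), and without the third 4-week library it was 1.75 (limma adjusted p = 0.0023). Kcnj15 was 1 of the 10 genes, against 1.07% of all genes, while 6 of the 10 had an unadjusted p under 0.05, as had 2426 of the 17390 genes. The monocyte-derived sum was lower at 4 weeks, 24318 to 24941 against 43721 to 58046, and its part in the Kcnj15 difference was not tested.

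Other genes came near the threshold in that comparison and crossed it in some settings. Car4 was 0.611 of its 2-week mean with no overlap (-0.74 ± 0.19, limma adjusted p = 0.063). It passed with DESeq2 (adjusted p = 0.02) or without the second 4-week MHCII-high library (-0.93, limma adjusted p = 0.025), and without the third, the one that stands apart, the difference was -0.52 (limma adjusted p = 0.18). Kcnip4 was 2.79 times its 2-week mean (1.29 ± 0.41, limma adjusted p = 0.13), and passed with DESeq2 (1.48, adjusted p = 0.01) or without the third 4-week library (1.85, limma adjusted p = 0.0096). Tppp (0.99 ± 0.41, limma adjusted p = 0.27) passed without the first 4-week library (1.57, limma adjusted p = 0.042), and its difference was 0.49 without the third.

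Whether the gap between MHCII classes changed from 2 to 4 weeks was tested as an interaction. It is formed from the MHCII differences on which the choice of the 10 genes is taken to rest. Its p-values for these genes are therefore not free of that choice, and nothing is read from their count. By limma it called 0 of the 10 genes and 0% of all genes, and 0 of the 10 had an unadjusted p under 0.05, as had 987 of all genes. edgeR also called 0 genes, and DESeq2 called 56 genes, none of the 10. Without the third 4-week MHCII-high library, the one that stands apart, limma called 0 of the 10. In that fit 3 of the 10 had an unadjusted p under 0.05, as had 1350 of 17222 genes, and the estimate for Kcnip4 was 1.24. The largest estimates were those of Kcnj15 (0.78 ± 0.38, limma adjusted p = 0.88) and Kcnip4 (0.68 ± 0.58, limma adjusted p = 0.94), with a positive sign meaning a narrower gap at 4 weeks. A change of that size could not be told from the spread between libraries.

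**Figure D4:**
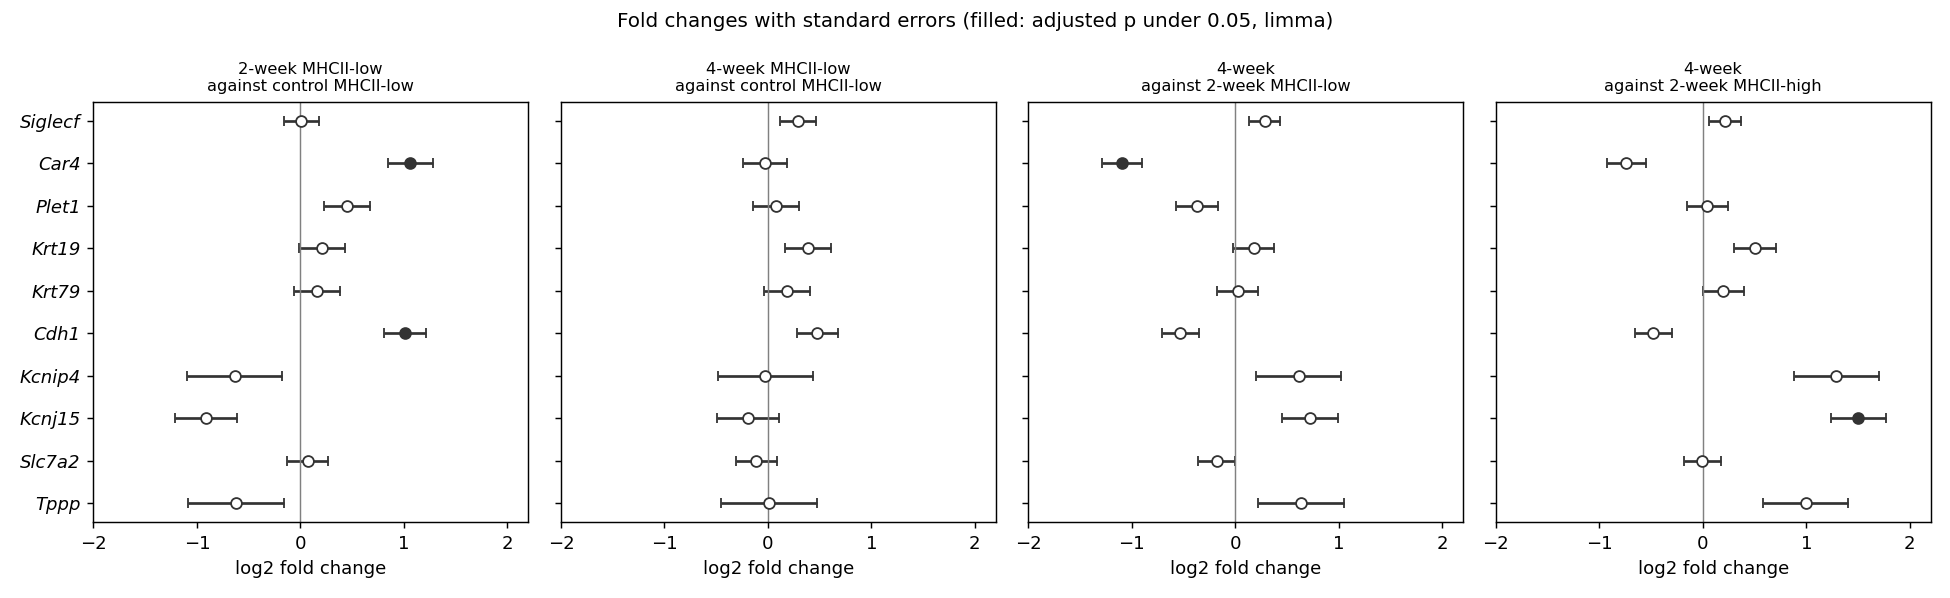
Log2 fold change with its standard error for each of the 10 genes in 4 tested comparisons, filled where the limma adjusted p was under 0.05. The filled points are Car4 and Cdh1 at 2 weeks against control, Car4 at 4 against 2 weeks in MHCII-low cells and Kcnj15 at 4 against 2 weeks in MHCII-high cells.

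Relatives of the 10 genes were taken from lists by family and function. Of 12 tested cadherin, catenin and junction genes, 2 rose in MHCII-low cells 2 weeks after bleomycin together with Cdh1, and their median log2 difference was 0.02 against -0.09 for all genes. Ctnnb1, beta-catenin, which binds the tail of E-cadherin inside the cell, rose from 14925 ± 155 (SD, n = 2) to 24747 ± 1955 (n = 3), a log2 fold change of 0.73 ± 0.16 (limma adjusted p = 0.016). F11r, a junctional adhesion molecule, rose by 0.77 ± 0.19 on the log2 scale (limma adjusted p = 0.038). The Ctnnb1 call was lost without control replicate 1 (adjusted p = 0.14), control replicate 3 (0.17) or 2-week replicate 3 (0.068), and that of F11r without any 1 of the 5 libraries (adjusted p up to 0.28). At 4 weeks neither passed against control (Ctnnb1 0.24 ± 0.16, F11r 0.57 ± 0.19). In MHCII-high cells Afdn, a junction scaffold, rose from 2 to 4 weeks (0.73 ± 0.15, limma adjusted p = 0.022), the 1 gene of the 12 to pass there, with the call lost without the first (adjusted p = 0.1) or the third (0.079) 2-week library.

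Of 11 tested potassium channel genes, 1 passed in each of 3 comparisons, and it was Kcna3, a voltage-gated channel, each time. It fell at 2 weeks against control in MHCII-low cells (-1.08 ± 0.24, limma adjusted p = 0.016), from 5238.5 and 4974 counts to 1653.5, 3293 and 2578.5. It rose from 2 to 4 weeks in MHCII-low (0.97 ± 0.21, adjusted p = 0.029) and in MHCII-high cells (0.93 ± 0.21, adjusted p = 0.035), both by limma. Leaving out 1 library ended these calls for 3 of 5, 5 of 6 and 5 of 6 libraries, with log2 values of -1.31 to -0.81, 0.69 to 1.19 and 0.81 to 1.06. The medians of the 11 were -0.15, -0.09 and -0.64, against -0.09, 0.03 and -0.07 for all genes.

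In the Siglec family, 1 of 7 tested genes passed. Cd33 rose at 2 weeks in MHCII-low cells (0.95 ± 0.21, limma adjusted p = 0.016) and fell from 2 to 4 weeks (-0.85 ± 0.19, limma adjusted p = 0.028), while Siglecf passed in neither. Each Cd33 call was lost on leaving out single libraries, with adjusted p up to 0.2 and 0.16. The median of the 7 at 2 weeks against control was 0.49, against -0.09 for all genes. Among 9 carbonic anhydrases other than Car4, 12 keratin and desmosome genes, 12 genes of cationic amino acid transport and arginine use and 15 tubulin genes, limma called 0 in the 5 tested comparisons. Over all 5 together, unadjusted p-values under 0.05 numbered 9, 10, 12 and 7, edgeR called 0 and DESeq2 called 1, 1, 2 and 3. Per kilobase, the most abundant relative of Car4 was Car5b, at 322.1 against 12401 for Car4, and that of Slc7a2 was Slc7a8, at 1510 against 11182. The most abundant Siglec relative, Cd33, at 5837, exceeded Siglecf, at 2088.

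Of 30 other genes of the resident alveolar macrophage, 3 rose and 1 fell at 2 weeks against control, with a median of 0.26 against -0.09 for all genes. Ctsk, the protease cathepsin K, rose most clearly (1.97 ± 0.19, limma adjusted p = 9.6e-07), followed by F7, a coagulation factor (1.34 ± 0.19, limma adjusted p = 0.00026). From 2 to 4 weeks 2 rose and 2 fell in each MHCII class. Ctsk fell in MHCII-low cells (-1.39 ± 0.17, limma adjusted p = 5.5e-05), as Car4 did. Ear1, a ribonuclease, rose in MHCII-low (1.13 ± 0.22, limma adjusted p = 0.011, lost for 4 of 6 libraries left out) and in MHCII-high cells (1.99 ± 0.22, limma adjusted p = 0.00013).

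Likeness of pattern was described by Pearson's r of log2 values over the 14 libraries, which the genes share, so group differences and library effects both enter. Among the 10 genes, r was 0.96 between Siglecf and Krt19, 0.96 between Krt19 and Krt79 and 0.95 between Siglecf and Krt79. Kcnip4 and Kcnj15 had 0.85. Cdh1 ran opposite to the channels, with -0.73 against Kcnip4 and -0.70 against Kcnj15, and Car4 was close to 0 with Tppp (0.004). Of 9962 other genes with a mean of at least 100 normalized counts, the most alike was Cap1 for Siglecf (0.94), Ptgfrn for Car4 (0.93), Rrp1 for Plet1 (0.97), Chst15 for Krt19 (0.94) and B4galnt1 for Krt79 (0.94). It was Mgat5 for Cdh1 (0.93), Atxn7l1 for Kcnip4 (0.94), Mlph for Kcnj15 (0.96), Cpne8 for Slc7a2 (0.92) and Flna for Tppp (0.96). Mgat5, for example, had 4362 ± 30.0 counts in control (n = 2), 6959 ± 699 and 4986 ± 70.9 in MHCII-low cells at 2 and 4 weeks, and 7270 ± 73.2 and 5067 ± 810 in MHCII-high cells (n = 3 each), an order of groups close to that of Cdh1.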

How the data were processed

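RNA-seq was measured in 14 libraries of sorted mouse lung cells. The deposited table holds a signal per gene and library: normalized counts, per the file headers, rounded to 1 decimal. The submitters' processing notes name STAR, DESeq2 and mm10 without giving their roles. Neither the counting program nor its strand setting is stated there. Exon length, used for values per kb, and GC percent are as deposited by the authors. The spans of all 10 genes equal those of GENCODE M21, as do those of 90.2% of 42462 shared genes.

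Groups came from the labels. The 17390 genes that reached 10 normalized counts in 2 or more libraries were tested with limma 3.58.1 (mean-variance trend) on log2(normalized count + 1), all 14 libraries in 1 fit with 1 coefficient per group, with Benjamini-Hochberg adjustment over all genes tested and a threshold of 0.05. Fold changes are on that log2 scale. Alternatives were a pseudocount of 10, no filter or one of 50, TMM scaling, edgeR 4.0.16 and DESeq2 1.42.0 on recovered reads, mitochondrial ribosomal RNA as a covariate, removal of a GC trend, a replicate block, and leaving out each library. Reads were recovered as multiples of the worth of 1 read (0.3895 to 2.237 normalized counts). Within the rounding of 0.05, 99.87% to 100% of low values were whole; in control replicate 1 the worth of 1 read is so small that this is a weak check, and its reads enter edgeR and DESeq2 all the same. The fits were tested on simulated data.

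The 10 genes, the lists and the cell type markers were chosen with earlier results of these data known. Named besides the 10 genes are at most 2 genes per list with the smallest p, the relative with the highest mean per kb, and the gene most alike to each. Krt8, Krt18, Vwf, Cldn5, Sftpa1, Sftpb, Sftpc, Sftpd, Abca3, Lamp3, Scgb1a1, Cyp2f2, Ighm, Prg2 and the antisense genes were named after their values were seen. So were the neutrophil markers Csf3r, Cxcr2, S100a8, Ly6g and Camp, the other endothelial markers and the other lymphocyte markers. The MHCII-high against MHCII-low differences, taken here as the values that chose the genes, carry no p. The exact values used are not recorded. The tested comparisons share libraries with these differences, so the choice may bear on their p-values and counts as well. Per the labels, 2 models of cell sorter were used; which sample went through which is not stated, and the part of the sorter was not tested.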

Additional observations from a re-analysis of the deposited data

How the results depend on the processing

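Of the values of single genes among the 10 in the 5 tested comparisons, recomputed under every alternative, 781 kept their side of the threshold, 5 gained a call and 4 lost one, and no called value changed sign. A sign that changed where neither value was called, as for Tppp at 4 weeks against control (0.01, and -0.48 to 0.63 over the alternatives), was not counted as a reversal. Leaving out 1 library gave 0 to 2 of the 10 genes called at 2 weeks against control (2 with all libraries) and 0 to 2 from 2 to 4 weeks in MHCII-high cells (1 with all libraries). DESeq2 called 3 in the latter. With 1 control library left out, the lone control is assumed to vary like the other groups. Of the described MHCII-high against MHCII-low values, 293 moved by less than the spread between libraries and 7 by more. The number of all genes called was 332 at 2 weeks and 8 at 4 weeks against control, 149 from 2 to 4 weeks in MHCII-low and 186 in MHCII-high cells, and 0 for the interaction. Leaving out 1 library gave 127 to 308, 1 to 8, 95 to 138, 64 to 299 and 0 to 2. The other settings gave 213 to 660, 2 to 77, 101 to 322, 103 to 638 and 0 to 56, each time highest with DESeq2. Over all alternatives, left-out libraries included, the median log2 difference of all genes lay within -0.13 to 0.10. Same-numbered libraries of different groups deviated together only weakly (r from -0.06 to 0.11). Libraries with different numbers were not set beside them, so this does not settle whether the numbers pair libraries. With the replicate block, 2, 0, 1, 1 and 0 of the 10 genes were called in the 5 tested comparisons, as without it, and 416 in place of 332 genes at 2 weeks against control. Depth limits Kcnip4 and Tppp most, with 97 and 114 reads in their thinnest libraries.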
